A study of Sus scrofa with 17 samples.

Results

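The genes described here build the thin filament of the sarcomere and the scaffold that holds the filaments in register. They are the sarcomeric actins ACTA1 and ACTC1, the tropomyosins TPM1 and TPM2, the Z-disc actinin ACTN2, the giant proteins nebulin (NEB) and titin (TTN), the myosin-binding protein MYBPC1 and the myomesins MYOM1 and MYOM2. These 10 genes were taken by symbol from the 31908 Ensembl genes of the count table. The symbols of 9 of them belonged to 1 Ensembl gene each. Titin had no gene under its symbol, and its 4 rows were found by position, so that 13 rows stood for the 10 genes.

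RNA from the longissimus muscle of male Large White × Duroc piglets was sequenced, 1 library for each piglet, in single-end reads of 75 nt. The control diet (n = 6) was based on wheat, maize and soybean meal, the UL diet (n = 6) held 7% of the green seaweed Ulva lactuca in its place, and the ULU diet (n = 5) was UL with 0.01% of ulvan lyase, an enzyme that cuts a polysaccharide of the seaweed cell wall. All piglets entered the trial at 28 days of age, were housed one to a cage and pair-fed, and received the diets for 2 weeks after 5 days of adaptation. The methods name 6 piglets per diet, and 5 ULU libraries were analysed here.

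In a muscle fibre, actin monomers polymerise into thin filaments that are wound by tropomyosin, which uncovers the myosin-binding sites when calcium binds troponin. The filaments of neighbouring sarcomeres are cross-linked by alpha-actinin at the Z-disc. Nebulin runs along the thin filament, titin spans from the Z-disc to the M-band as a spring, and myomesins tie the thick filaments together at the M-band. ACTA1 is the actin of mature skeletal muscle, whereas ACTC1 is the actin of the heart and of developing skeletal muscle.

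Counted reads ranged from 16137365 to 26546810 per library. Levels are given as CPM, the reads of a gene in 1e6 counted reads after TMM scaling, and 3 reads corresponded to 0.13 to 0.195 CPM, a limit that covers counting error only. Reads of the mitochondrial chromosome took 14.8% ± 0.697 (n = 6, SD) of the counts in control, 11.6% ± 2.11 (n = 6, SD) in UL and 10.2% ± 1.47 (n = 5, SD) in ULU, and the difference between ULU and control passed the adjusted threshold (two-sided exact permutation test, p = 0.00216, adjusted p = 0.026 over 12 comparisons of library measures). Of 8 listed markers of the skeletal muscle fibre, 5 were found in the count table. CKM, MYH2, CASQ1 and PYGM were abundant in every library, whereas the row of MYH7 held 0 to 2 reads. The summed level of these markers had a median of 50575 CPM in control, 59559 CPM in UL and 72079 CPM in ULU. In whole muscle, a smaller number of fibres and less RNA per fibre cannot be told apart. No library or sequencing batch is named in the labels. ULU piglet 43 stood apart, with the lowest TMM factor (0.765) and the highest level of 8 of the 10 genes among the 17 piglets, so calls in ULU vs control that were lost without it are given with that value.

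Together the 10 genes held 11.3% ± 1.12 (n = 6, SD) of all counted reads in control, 12.9% ± 0.872 (n = 6, SD) in UL and 14.7% ± 1.49 (n = 5, SD) in ULU. ACTA1 alone made up 62.2% ± 2.32 (n = 6, SD) of their reads in control, 61.8% ± 4.7 (n = 6, SD) in UL and 64.6% ± 3.1 (n = 5, SD) in ULU. Every ULU library had a larger share than every control library, from 12.8% in piglet 42 to 16.9% in piglet 43, against at most 12.7% in control. The UL libraries, from 11.9% to 14.2%, overlapped both. The actins held 7.11% ± 0.869 (n = 6, SD) of the counts in control and 9.65% ± 1.34 (n = 5, SD) in ULU, and the tropomyosins 2.17% ± 0.318 (n = 6, SD) and 2.95% ± 0.125 (n = 5, SD). For the scaffold genes the summed shares lay within their spread, at 2.02% ± 0.248 (n = 6, SD) in control, 2.18% ± 0.182 (n = 6, SD) in UL and 2.13% ± 0.247 (n = 5, SD) in ULU. NEB held most of that sum, with a mean of 1.14% of the counts over all libraries. The scaffold genes differed after TMM scaling, with log2(fold change) in ULU vs control of 0.68 for ACTN2, 0.61 for MYOM2 and 0.13 for NEB (edgeR). For MYOM1 it was 0.47 and for MYBPC1 0.41. The rows of titin ran from -0.18 to 0.60. Of these, only MYOM2 passed the adjusted threshold. The mitochondrial share was lower in the diets where the summed share of the 10 genes was higher. Without mitochondrial reads the 10 genes held 13.3% ± 1.33 (n = 6, SD) in control, 14.6% ± 1.04 (n = 6, SD) in UL and 16.4% ± 1.75 (n = 5, SD) in ULU. On that base ULU and control overlapped, since ULU piglet 42 at 14.3% lay below control piglet 25 at 15.1%.

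**Figure D1:**
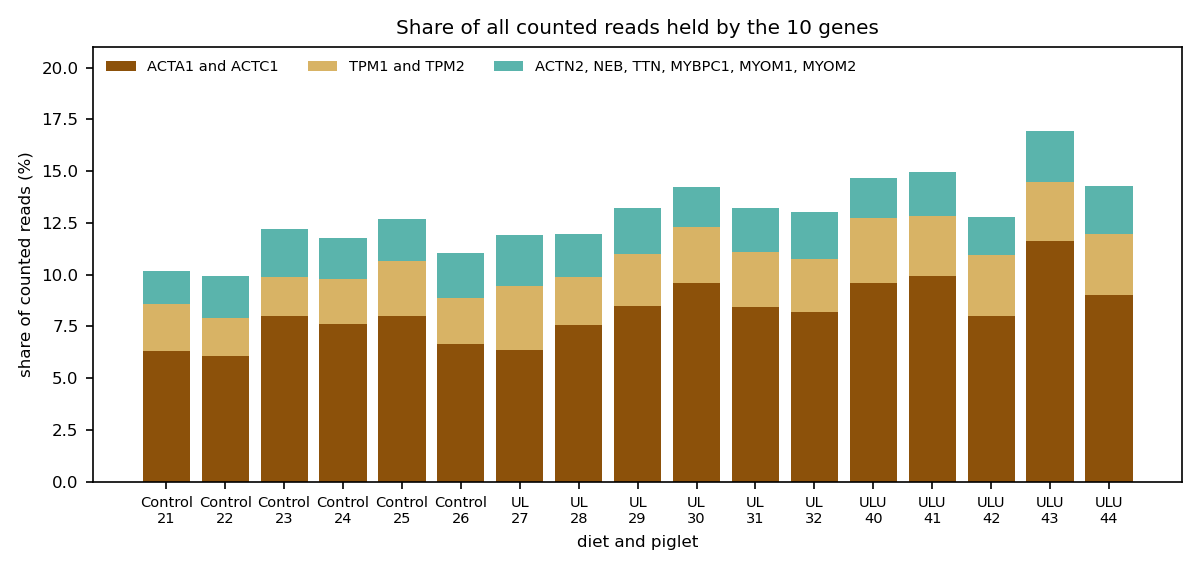
Share of all counted reads (%, y axis) held by the 10 genes in each of the 17 libraries (x axis, diet and piglet number), with the actins, the tropomyosins and the scaffold genes stacked. The total ran from 9.91% in control piglet 22 to 16.9% in ULU piglet 43, and most of the height is ACTA1.

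Levels of different genes were compared per length, as CPM per kilobase of the exonic length of the count table. On that scale ACTA1 averaged 21010 ± 5909 (n = 17, SD) CPM per kb, the second highest value among the genes tested. TPM2 followed with 5220 ± 1248 (n = 17, SD) CPM per kb and TPM1 with 2290 ± 523 (n = 17, SD), so that TPM2 stood above TPM1 per length although TPM1 had more reads. That order rests on the exonic lengths of the count table, 7669 bases for TPM1 and 1611 for TPM2. Whether it holds per transcript length was not tested. The 3′ row of titin had 1018 ± 263 (n = 17, SD) CPM per kb, ACTC1 618 ± 422 (n = 17, SD) and NEB 493 ± 84.7 (n = 17, SD), and the order of ACTC1 and NEB was within their spread. MYBPC1 (214 ± 56.1, n = 17, SD) and ACTN2 (171 ± 49.1, n = 17, SD) likewise lay within each other's spread, as did MYOM2 (98.1 ± 28.7, n = 17, SD) and MYOM1 (79.9 ± 16.4, n = 17, SD) at the low end, all in CPM per kb. The ACTA1 model of the count table reaches from 60412671 to 60459003 on chromosome 14 of Sscrofa11.1, far past the RefSeq gene, which ends at 60415687, and its 3937 exonic bases therefore make its level per length a low estimate.

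Differences between diets were tested with edgeR's quasi-likelihood F test with Benjamini-Hochberg adjustment over 14203 genes, in 1 model of all 17 libraries, and a gene was called at an adjusted p-value under 0.05. All 13 rows passed the filter on low counts. In UL vs control, 0 of the 10 genes were called, as was 0% of all genes tested, and 2 of the 10 had an unadjusted p-value under 0.05 against 10.8% of all genes. DESeq2, run as an alternative, called 0 of the 10 there, and 146 genes or 1.5% of those it gave an adjusted p-value. In ULU vs control, 2 of the 10 genes rose, TPM2 and MYOM2, and none fell, beside 2.98% of all genes called (282 higher and 141 lower, or 65 higher and 347 lower without scaling factors). An unadjusted p-value under 0.05 was found there for 7 of the 10 against 18.9% of all genes. In ULU vs UL, 0 of the 10 genes were called by edgeR or by DESeq2, beside 0.0352% and 3% of all genes, and 2 of the 10 had an unadjusted p-value under 0.05 against 10.8% of all genes. DESeq2 called 7 of the 10 genes in ULU vs control, the 2 above with ACTA1, TPM1, ACTN2, MYOM1 and the 3′ row of titin, beside 1037 genes in all, or 8.14% of those with an adjusted p-value.

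The calls in ULU vs control sat close to the threshold. Besides TPM2 and MYOM2, 5 of the 10 genes had an adjusted p-value between 0.0516 and 0.0666 (edgeR). Neither TPM2 nor MYOM2 was called with only the 2 diets in the model or without the filter on low counts. Without scaling factors, ACTA1 and TPM2 were called and MYOM2 was not. The log2(fold change), log2FC, of the 10 genes had a median of 0.29 in UL vs control, 0.6 in ULU vs control and 0.29 in ULU vs UL, while the medians of all genes tested were -0.0027, -0.028 and -0.021. All 10 genes had a positive value in each comparison when titin was read from its 3′ row, but NEB in ULU vs control and NEB, MYBPC1 and ACTC1 in ULU vs UL turned negative with other scalings or with 1 piglet left out. The 3 comparisons share libraries, so these counts are not independent of each other. No gene reached a log2FC of 1. Ranges of CPM did not overlap for 0 of the 10 genes in UL vs control (0.852% of all genes tested), for TPM2 and MYOM1 in ULU vs control (3.39% of all genes) and for TPM2 in ULU vs UL (1.75% of all genes). These are ranges after TMM scaling. As shares of all counts, MYOM1 in ULU vs control and TPM2 in ULU vs UL overlapped.

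**Figure D2:**
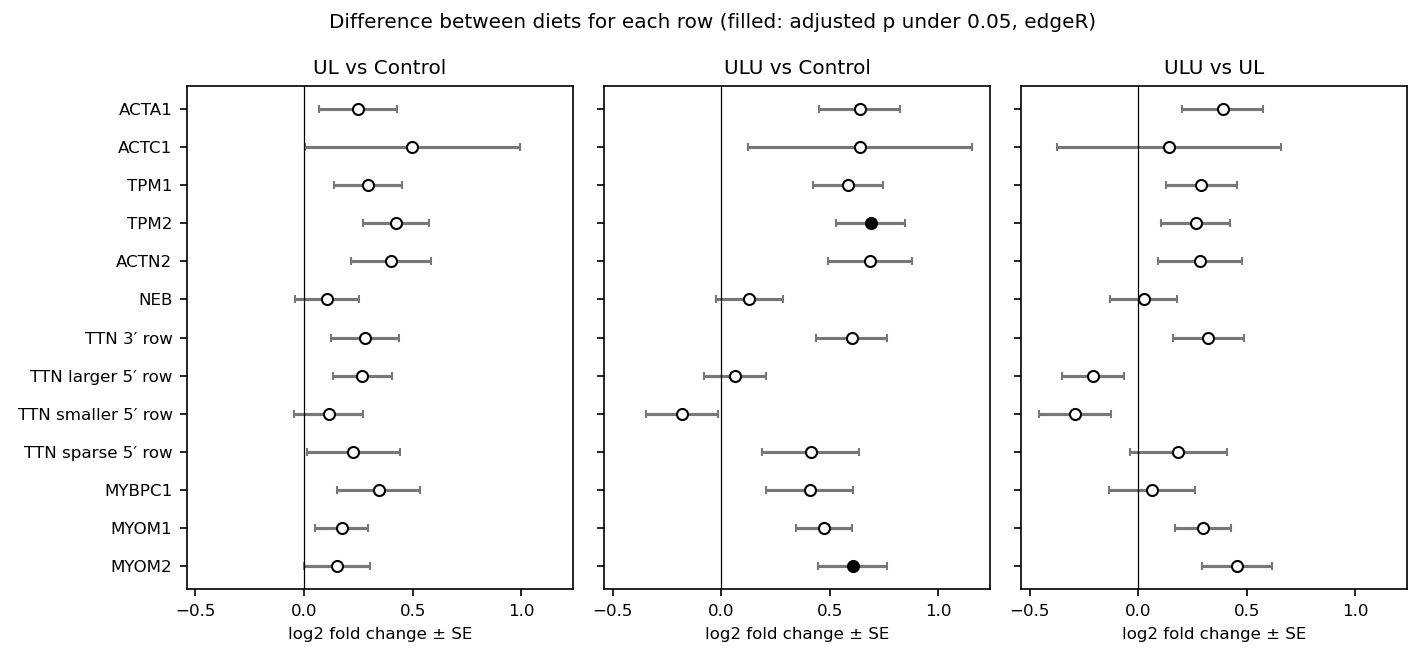
Log2FC with its SE (x axis) for the 13 rows of the 10 genes (y axis) in the 3 diet comparisons, with filled points for an adjusted p-value under 0.05 (edgeR). The filled points are TPM2 at 0.69 and MYOM2 at 0.61 in ULU vs control. In that comparison NEB lies at 0.13, the larger 5′ row of titin at 0.06 and its 3′ row at 0.60.

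ACTA1 (ENSSSCG00000010190), the most abundant gene of the muscle by counts, ranged from 49348 to 83927 CPM in control with a median of 68435 CPM. In UL it ranged from 60382 to 91956 CPM with a median of 81669 CPM. In the ULU piglets 40 to 44 there were 103195, 104010, 75690, 151559 and 88750 CPM. Of the 5 ULU piglets, 4 lay above every control piglet, and piglet 42 lay inside the control range. The log2FC in ULU vs control was 0.64 (SE 0.19, adjusted p = 0.0666, edgeR), which did not pass, and it was 0.46 (adjusted p = 0.164) without ULU piglet 43. Without scaling factors ACTA1 was called, at 0.44 (adjusted p = 0.0472, edgeR). In UL vs control it was 0.25 (SE 0.18, adjusted p = 0.666, edgeR).

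ACTC1 (ENSSSCG00000004803, chromosome 1, 136281167 to 136286545, plus strand), the cardiac and fetal actin, was the most variable of the 10 genes, with an 8.72-fold range over the 17 piglets. Control piglets ranged from 355 to 1044 CPM (median 587) and UL piglets from 254 to 1994 CPM (median 828). ULU piglets 40 to 44 stood at 336, 246, 1750, 670 and 2140 CPM. The ULU values thus held both the lowest and the highest level of the study, and the diets overlapped throughout. The log2FC of ULU vs control was 0.64 with a SE of 0.52 (adjusted p = 0.537, edgeR), a 95% interval from -0.37 to 1.65. Reads that match several actin genes equally well were not counted, so the split between ACTA1 and ACTC1 is uncertain where their sequences are alike.

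Other genes of fetal muscle were high in one of the 2 ULU piglets with much ACTC1, but not in the other. This set was chosen after its values were seen, and holds the cardiac and fetal troponin TNNT2, the fetal light chain MYL4, the embryonic myosin MYH3 and the perinatal myosin MYH8. ULU piglet 42 had 246 CPM of TNNT2, 89.0 CPM of MYL4, 272 CPM of MYH3 and 450 CPM of MYH8, each the highest of the 17 piglets. ULU piglet 44, with the most ACTC1, had 17.4, 0.194, 49.0 and 76.0 CPM of the same genes in that order, all within the control range. UL piglet 29, with 1994 CPM of ACTC1, had 50.8, 12.97, 117 and 130 CPM. Of the markers of heart muscle, the cardiac troponin TNNI3 had 0 to 9 reads per library, whereas the row of the cardiac myosin MYH6 had 652 to 2738 CPM and rose in ULU vs control (log2FC 1.11, adjusted p = 0.0236, edgeR). MYH6 lies beside the near-identical slow myosin MYH7, whose row held 0 to 2 reads, so reads of the pair cannot be assigned to either here.

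**Figure D3:**
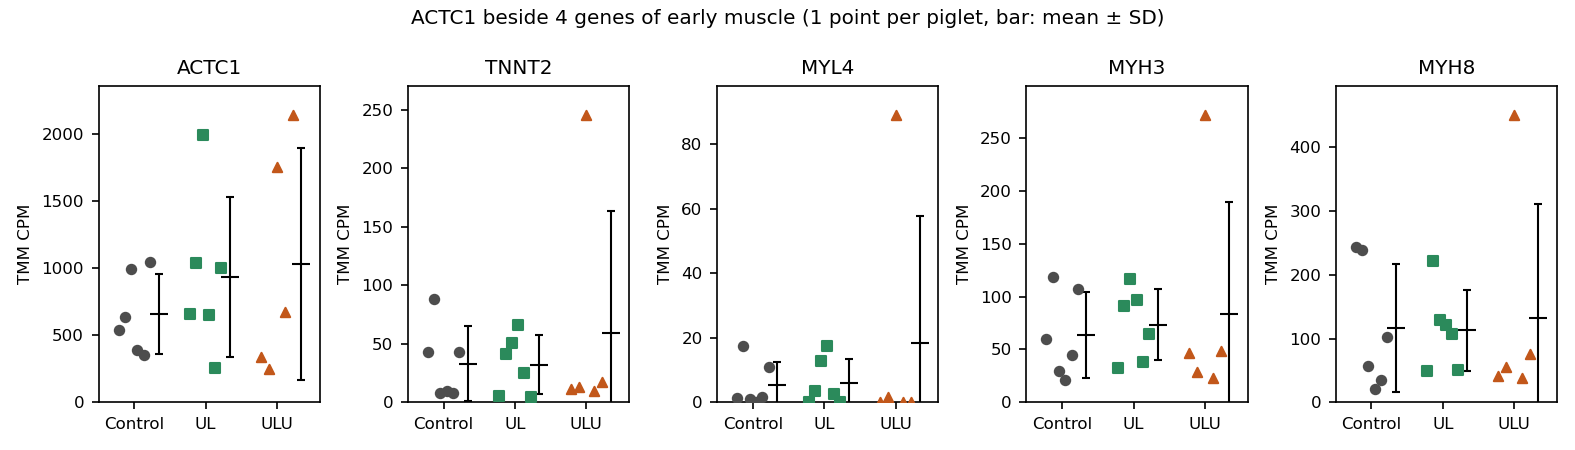
CPM (y axis) of ACTC1 and of 4 genes of fetal muscle in each piglet by diet (x axis), with the mean and SD. One ULU piglet has the highest value in all 4 panels on the right, at 246 CPM of TNNT2 and 450 CPM of MYH8, while ACTC1 is highest in another ULU piglet at 2140 CPM.

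TPM2 (ENSSSCG00000005316, chromosome 1, 236402247 to 236410471, minus strand), the beta-tropomyosin, ranged from 4436 to 9078 CPM in control with a median of 6294 CPM. The UL piglets lay between 7338 and 9422 CPM with a median of 8837 CPM. In the ULU piglets 40 to 44 it stood at 10685, 9864, 9523, 11665 and 10363 CPM. Every ULU piglet was above every control and every UL piglet, and control was the widest group, with an SD of 1785 CPM against 737 CPM in UL and 827 CPM in ULU. The separation from UL was seen only after TMM scaling. As shares of all counts, ULU piglets 43 (0.892%) and 41 (0.942%) lay below UL piglet 29 (0.981%). All ULU shares stayed above the highest control share, 0.860% in piglet 25. TPM2 rose in ULU vs control by a log2FC of 0.69 (SE 0.16, adjusted p = 0.0295, edgeR). The call was lost when 1 of 7 libraries was left out (control 22, 23, 24 or 26, or ULU 40, 41 or 43), with an adjusted p-value of 0.0682 without ULU piglet 43. It was 0.42 in UL vs control (SE 0.15, unadjusted p = 0.012, adjusted p = 0.328, edgeR) and 0.26 in ULU vs UL (SE 0.16, adjusted p = 0.586, edgeR).

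TPM1 (ENSSSCG00000004570, chromosome 1, 108986981 to 109019440, minus strand), the alpha-tropomyosin, averaged 14321 ± 3263 CPM (n = 6, SD) in control, 17556 ± 2556 CPM (n = 6, SD) in UL and 21470 ± 2834 CPM (n = 5, SD) in ULU. Of the 5 ULU piglets, 4 lay above every control piglet, of which the highest, piglet 25, had 19302 CPM. The log2FC in ULU vs control was 0.58 (SE 0.16, adjusted p = 0.056, edgeR) and did not pass. The ratio of TPM1 to TPM2 within a library was 2.29 ± 0.626 (n = 6, SD) in control, 2.05 ± 0.428 (n = 6, SD) in UL and 2.06 ± 0.139 (n = 5, SD) in ULU, and no pair of diets differed beyond the spread (two-sided exact permutation tests, adjusted p = 0.866 for each pair over the 15 ratio comparisons). Control piglet 24 had a ratio of 3.56, the highest of the study, with the lowest TPM2 of all piglets.

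ACTN2 (ENSSSCG00000010144, chromosome 14, 54666623 to 54742779, minus strand) codes for the alpha-actinin of the Z-disc. It averaged 1516 ± 400 CPM (n = 6, SD) in control, 2002 ± 424 CPM (n = 6, SD) in UL and 2437 ± 513 CPM (n = 5, SD) in ULU. The 5 ULU piglets, 40 to 44, had 2270, 2284, 1766, 3104 and 2761 CPM, and 4 of them lay above the highest control piglet at 2017 CPM. The log2FC was 0.68 in ULU vs control (SE 0.19, adjusted p = 0.0607, edgeR) and 0.40 in UL vs control (SE 0.19, unadjusted p = 0.0433, adjusted p = 0.444, edgeR).

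NEB (ENSSSCG00000016397, chromosome 15, 546233 to 766131, plus strand), which lines the thin filament, had values between 9564 and 12666 CPM in control with a median of 10639 CPM. In UL it lay between 9894 and 13894 CPM with a median of 11445 CPM. In ULU, piglets 40 to 44 had 10782, 10826, 9346, 17086 and 11417 CPM, and only piglet 43 was outside the control range on the high side. As a share of all counts, without TMM scaling, NEB in piglet 43 was at 1.31%, beside 1.28% in control piglet 23 and 1.39% in UL piglet 27. The log2FC of NEB in ULU vs control was 0.13 (SE 0.15, 95% interval -0.17 to 0.43, adjusted p = 0.691, edgeR), and -0.039 without ULU piglet 43.

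Relative to ACTA1, NEB was lower in ULU than in control. The ratio of NEB to ACTA1 within a library, which does not depend on the scaling between libraries, lay between 0.144 and 0.195 in control, between 0.108 and 0.221 in UL and between 0.104 and 0.129 in ULU. The ULU and control piglets did not overlap (log2 difference -0.52, two-sided exact permutation test, p = 0.00216, adjusted p = 0.0162 over 15 ratio comparisons, n = 5 and 6), and 0.00216 is the smallest p-value these piglets can give. With any 1 library left out, this difference lay between -0.56 and -0.46. These ratios were chosen after the data were seen. ULU vs UL had a log2 difference of -0.36 (exact permutation p = 0.039, adjusted p = 0.146) and UL vs control one of -0.16 (exact permutation p = 0.351, adjusted p = 0.765). NEB is the longest of the 10 genes in the count table with 23244 exonic bases. Over all genes with at least 10 CPM, the median log2FC of ULU vs control was 0.113 for 826 genes of up to 2 kb and 0.0065 for 486 genes of over 10 kb. It was 0.062 for genes of 2 to 6 kb, the class of ACTA1 in the count table. For genes of up to 2 kb and of over 10 kb, the medians were 0.107 and -0.0033 in UL vs control. In ULU vs UL they were 0.0071 and 0.019. The part of length in the NEB ratio was not tested.

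Titin spans from 84226953 to 84501320 on chromosome 15 (minus strand) in RefSeq, and 4 Ensembl genes lie within it. The row at its 3′ end (ENSSSCG00000036052, 84226953 to 84230496), where the M-band end of the protein is encoded, had 2352 exonic bases. Nearer to the 5′ end lay a larger row (ENSSSCG00000038561, 84399015 to 84416223, 7776 exonic bases), a smaller one (ENSSSCG00000042430, 84423605 to 84426239) and a sparse one (ENSSSCG00000034677, 84406181 to 84411489) with a mean of 52.2 reads. The larger and the sparse row share 1966 exonic bases, and reads that fall on both genes were not counted, so the level of each is understated. The stretches from 84230496 to 84399015 and from 84426239 to the 5′ end at 84501320 held no row of titin, and their reads are not in these values. The rows called 5′ here thus lay inside the gene and did not reach its 5′ end.

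The 3′ row of titin ranged from 1346 to 2592 CPM in control with a median of 1918 CPM, and from 2084 to 2505 CPM in UL with a median of 2459 CPM. Piglets 40 to 44 of ULU had 2476, 2609, 2342, 4178 and 3191 CPM of it. Of these, 3 were above every control and UL piglet. The larger 5′ row had 1663 ± 251 CPM (n = 6, SD) in control, 2003 ± 286 CPM (n = 6, SD) in UL and 1737 ± 353 CPM (n = 5, SD) in ULU. The rows thus differed. In ULU vs control the log2FC was 0.60 for the 3′ row (SE 0.16, adjusted p = 0.0516, edgeR) and 0.06 for the larger 5′ row (SE 0.14, adjusted p = 0.85, edgeR). For the smaller 5′ row it was -0.18 (SE 0.17, adjusted p = 0.597, edgeR). The sparse 5′ row had 0.41 (SE 0.22, adjusted p = 0.331, edgeR). With the 4 rows summed, a step added once the data had been seen, titin had a log2FC of 0.34 (SE 0.15, adjusted p = 0.211, edgeR).

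The ratio of the 3′ row to the larger 5′ row was 1.18 ± 0.236 (n = 6, SD) in control, 1.19 ± 0.104 (n = 6, SD) in UL and 1.7 ± 0.193 (n = 5, SD) in ULU. Every ULU piglet, from 1.42 to 1.93, was above every UL piglet, of which the highest had 1.29 (log2 difference 0.51, two-sided exact permutation test, p = 0.00216, adjusted p = 0.0162 over 15 ratio comparisons, n = 5 and 6). Against control the log2 difference was 0.54 (exact permutation p = 0.00866, adjusted p = 0.0433), and control piglet 25 at 1.54 lay inside the ULU range. Left out one at a time, no library brought the unadjusted p-value of either difference above 0.0238. UL and control differed by 0.04 on the log2 scale (exact permutation p = 0.766, adjusted p = 0.866).

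The same measure was available for 3 other genes that are split into separate rows with at least 10 CPM each, the nuclear envelope gene SYNE1, the collagen gene COL4A1 and the RNA-binding gene TIA1. The log2 ratio of the 3′ row to the 5′ row was higher in ULU than in control by 0.331 for SYNE1, 0.235 for COL4A1 and 0.341 for TIA1, and higher than in UL by 0.323, 0.533 and 0.315. In UL vs control the differences were 0.0086, -0.298 and 0.0258. In all 3 genes the ratio was thus higher in ULU than in both other diets, as in titin. These values have no test, and the part of RNA integrity or of read coverage along transcripts in it was not tested.

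**Figure D4:**
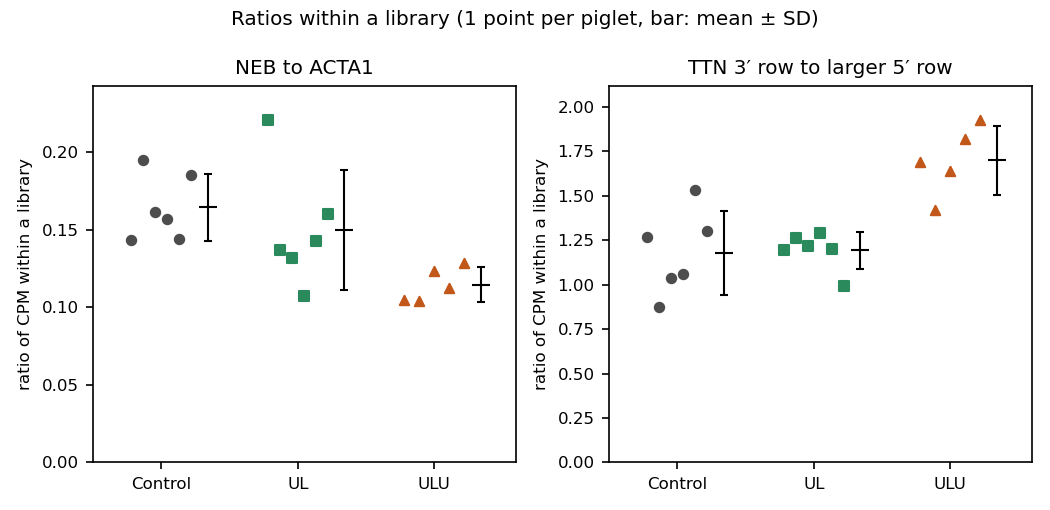
Ratio of CPM within a library (y axis, linear) for NEB to ACTA1 and for the 3′ row to the larger 5′ row of titin, by diet (x axis), 1 point per piglet with the mean and SD. The ULU piglets lie below every control piglet for NEB to ACTA1, at 0.104 to 0.129, and above every UL piglet for titin, at 1.42 to 1.93.

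MYBPC1 (ENSSSCG00000000866, chromosome 5, 82557607 to 82696126, minus strand) codes for the myosin-binding protein C of slow fibres, which binds both thick and thin filaments. It averaged 1412 ± 359 CPM (n = 6, SD) in control, 1791 ± 545 CPM (n = 6, SD) in UL and 1872 ± 273 CPM (n = 5, SD) in ULU. The diets overlapped, and the log2FC was 0.41 in ULU vs control (SE 0.20, adjusted p = 0.277, edgeR) and 0.34 in UL vs control (SE 0.19, adjusted p = 0.54, edgeR).

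MYOM2 (ENSSSCG00000015747, chromosome 15, 33496988 to 33606928, plus strand), the myomesin of fast fibres, lay between 782 and 1128 CPM in control with a median of 997 CPM, and between 983 and 1194 CPM in UL with a median of 1085 CPM. Among ULU, piglets 40 to 44 had 1309, 1368, 1084, 2360 and 1363 CPM. Of these, 4 were above every control piglet and piglet 42 was not. MYOM2 rose in ULU vs control by a log2FC of 0.61 (SE 0.16, adjusted p = 0.0463, edgeR). This call rested on single libraries: it was kept without control 25, UL 27 or ULU 42 and lost when any 1 of the other 14 libraries was left out, and without ULU piglet 43 the log2FC was 0.38 (adjusted p = 0.11, edgeR). Without scaling factors it was 0.40 and not called (adjusted p = 0.0558, edgeR). Against UL it was 0.45 (SE 0.16, unadjusted p = 0.0101, adjusted p = 0.308, edgeR).

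MYOM1 (ENSSSCG00000003693, chromosome 6, 103451343 to 103597324, plus strand), the other myomesin of the M-band, ranged from 340 to 469 CPM in control with a median of 440 CPM and from 393 to 503 CPM in UL with a median of 485 CPM. Values of ULU piglets 40 to 44 were 516, 581, 471, 795 and 553 CPM. All 5 were above every control piglet, but the lowest, at 471 CPM, was next to the highest control piglet at 469 CPM. As shares of all counts the 2 diets overlapped, with ULU piglet 40 at 0.0477% and control piglet 24 at 0.0506%. The log2FC in ULU vs control was 0.47 (SE 0.13, adjusted p = 0.0524, edgeR), and 0.33 (adjusted p = 0.145, edgeR) without ULU piglet 43. MYOM2 exceeded MYOM1 by a ratio of 2.36 ± 0.347 (n = 6, SD) in control, 2.32 ± 0.229 (n = 6, SD) in UL and 2.53 ± 0.264 (n = 5, SD) in ULU, with no difference beyond the spread (exact permutation tests, adjusted p from 0.591 to 0.866). MYOM1 shares 792 exonic bases with LPIN2 (99.1 reads on average), and reads on both were not counted.

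**Figure D5:**
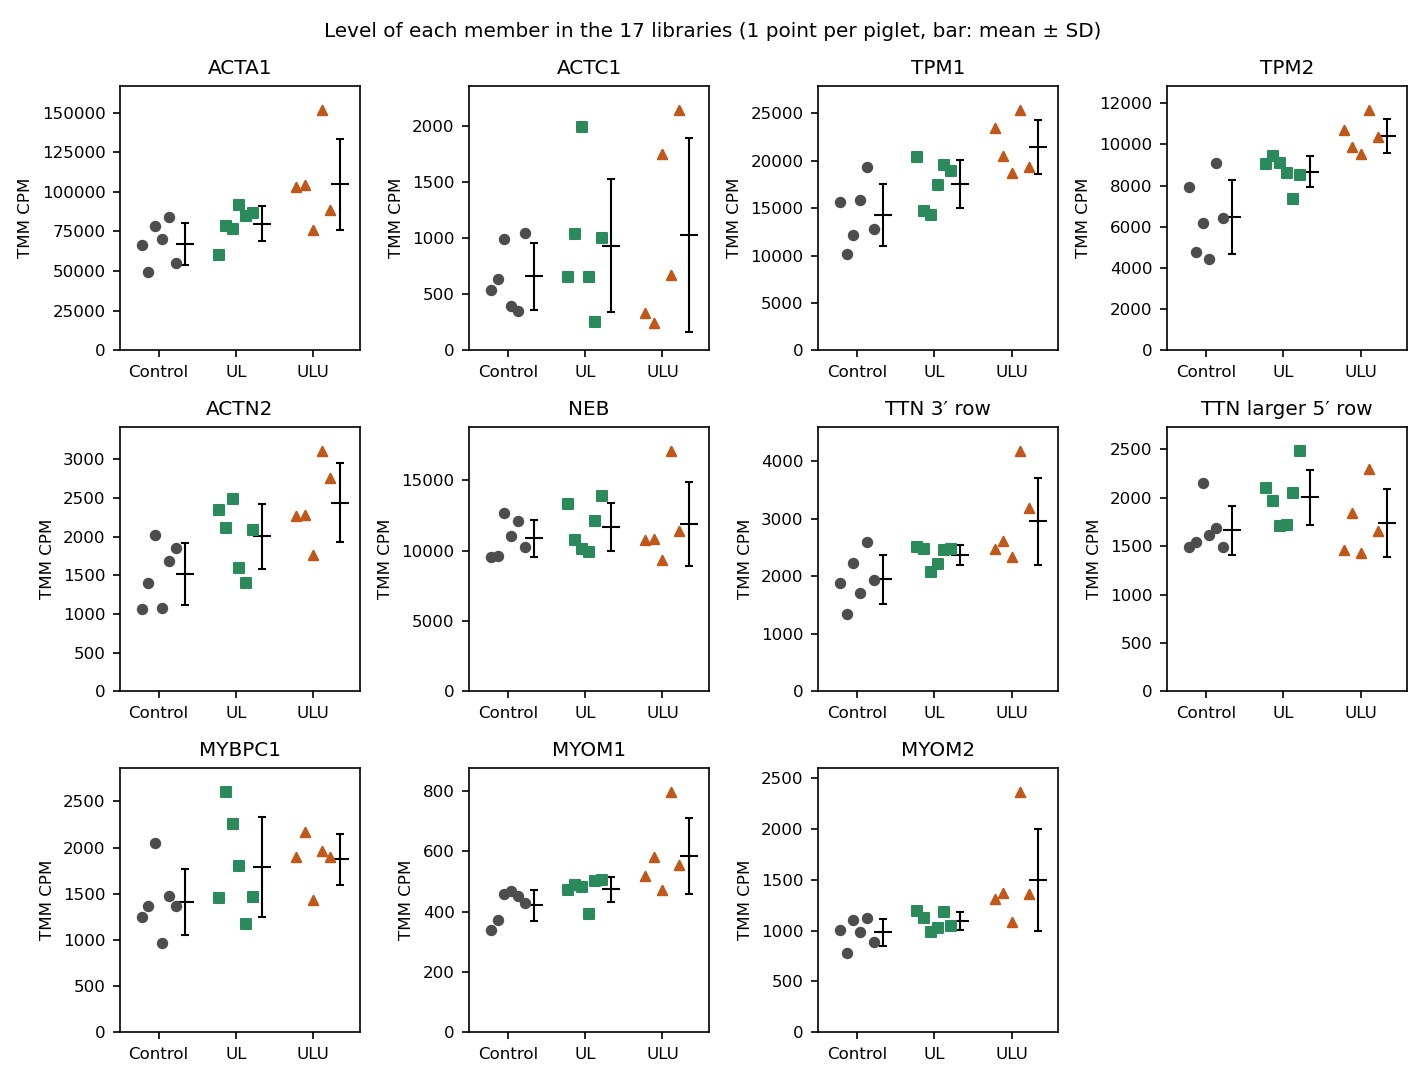
TMM CPM (y axis, from 0) of the 10 genes by diet (x axis), 1 point per piglet with the mean and SD, titin being shown by 2 of its rows. On this scale all ULU piglets lie above all others in TPM2, which did not hold against UL for shares of all counts. In NEB and MYOM2 one ULU piglet stands far above the rest of its diet at 17086 and 2360 CPM.

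Within diets, piglets with more ACTA1 also had more of several other members. Over the deviations of the 17 piglets from their diet means of log2 CPM, ACTA1 correlated with MYOM2 (r = 0.758, permutation p = 0.00037, adjusted p = 0.00185 over 10 relations; Spearman's rho = 0.659, permutation p = 0.00509, adjusted p = 0.0254). The correlation with the 3′ row of titin was r = 0.676 (permutation p = 0.00302, adjusted p = 0.0101; rho = 0.532, permutation p = 0.0291, adjusted p = 0.0593). MYOM1 (r = 0.595), NEB (r = 0.592) and TPM1 (r = 0.538) also passed for r, with permutation adjusted p-values of 0.0245, 0.0245 and 0.0417. Of these 3, MYOM1 passed for rho as well (rho = 0.63, permutation adjusted p = 0.0259), whereas NEB (rho = 0.527) and TPM1 (rho = 0.517) had an adjusted p-value of 0.0593. Without the 2 piglets farthest from the median of ACTA1, ULU 42 and 43, r was 0.523 for MYOM2, 0.476 for the titin row, 0.247 for MYOM1, 0.24 for NEB and 0.454 for TPM1. The values of r for MYOM1 and NEB thus depended most on those piglets, and rho was not computed without them. ACTC1 had a negative correlation with ACTA1 that did not pass (r = -0.355, permutation p = 0.164, adjusted p = 0.205; rho = -0.449, permutation p = 0.0727, adjusted p = 0.104).

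TPM2 (r = 0.359), MYBPC1 (r = 0.233) and ACTN2 (r = 0.154) did not pass with ACTA1 (permutation adjusted p = 0.205, 0.41 and 0.556; rho = 0.176, 0.297 and 0.1, adjusted p = 0.552, 0.308 and 0.703). The giant genes NEB and TTN, read from its 3′ row, moved together (r = 0.784, permutation p = 0.00022, adjusted p = 0.00185; rho = 0.784, permutation p = 0.00036, adjusted p = 0.0036), and r was 0.7 without control 22 and ULU 43. All values of a piglet come from 1 library and share its scaling. Of the 45 pairs among the 10 genes, 36 had a positive r and 19 had an r above 0.5. No share over other pairs of genes is given beside these counts, so they are a description only.

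The genes whose deviations were most like those of ACTA1, among genes with at least 10 CPM, were CMYA5 (r = 0.913, n = 17), which codes for the muscle protein myospryn, the purine receptor gene P2RY1 (r = 0.903) and the muscle creatine kinase CKM (r = 0.868), with 2 genes that the tables used here do not name. For the 3′ row of titin they were SLC25A4 (r = 0.883, n = 17), the ADP/ATP carrier of muscle mitochondria, MYOM2 (r = 0.863), JSRP1 of the sarcoplasmic reticulum (r = 0.845) and NIPSNAP2 (r = 0.84), with 1 unnamed gene. For ACTC1, a search added after the data were seen, the named genes were ESYT1 (r = 0.799), PRKAR1A (r = 0.766), PCBP4 (r = 0.744) and JAM3 (r = 0.723). These are descriptions, since the genes were picked as the most alike among all genes of that level.

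Other parts of the sarcomere were read from 6 lists. Of their 75 genes tested, edgeR called 0 in UL vs control, where 18 had an unadjusted p-value under 0.05 (10.8% of all genes) and DESeq2 called 4 (1.5% of all genes). It also called 0 in ULU vs UL, where 14 had such a p-value (10.8% of all genes) and DESeq2 called 5 (3% of all genes). In ULU vs control edgeR called 14, beside 2.98% of all genes, 36 had an unadjusted p-value under 0.05 (18.9% of all genes) and DESeq2 called 22 (8.14% of all genes). Among regulators and caps of the thin filament, 4 of 17 genes tested rose in ULU vs control and none fell. They were the slow troponins TNNT1 (log2FC 1.30, SE 0.27, adjusted p = 0.0178, edgeR) and TNNI1 (0.92, adjusted p = 0.0406, edgeR), the fast troponin TNNT3 (0.66, adjusted p = 0.028, edgeR, but 0.0652 without ULU piglet 43) and CAPZB of the capping protein (0.56, adjusted p = 0.0142, edgeR). TNNC2, the fast troponin C and most abundant gene of this list, did not pass at 0.46 (SE 0.20, adjusted p = 0.22, edgeR). The median log2FC of the list was 0.3.

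At the Z-disc, 2 of 19 genes tested rose in ULU vs control, ACTN3 and PDLIM5, and none fell, with a list median of 0.27. ACTN3, the alpha-actinin of fast fibres, had 3569 ± 455 CPM (n = 6, SD) in control and 5827 ± 1267 CPM (n = 5, SD) in ULU (log2FC 0.71, SE 0.14, adjusted p = 0.0128, edgeR). PDLIM5, which binds actinin, was called at 0.49 (adjusted p = 0.0485, edgeR) and was not called without ULU piglet 43 (adjusted p = 0.115). Of the M-band and myosin assembly list, 2 of 10 genes rose. The muscle methyltransferase SMYD1 had 0.57 (SE 0.10, adjusted p = 0.0098, edgeR), and a row within ANK1, which codes for ankyrins that link the sarcoplasmic reticulum to the sarcomere, had 0.72 (adjusted p = 0.0189, edgeR, and 0.0507 without ULU piglet 43).

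In the thick filament list, 2 of 10 genes tested rose, with a list median of 0.52. These were MYBPC2, the myosin-binding protein C of fast fibres (log2FC 0.69, SE 0.13, adjusted p = 0.0122, edgeR), and the row of MYH2, whose span also holds MYH1 and MYH4 (0.53, adjusted p = 0.0397, edgeR, and 0.0851 without ULU piglet 43). MYL1, the most abundant gene of that list, had 0.27 (adjusted p = 0.445, edgeR). Of the actins, tropomyosin and actinins of non-muscle and smooth muscle cells, 0 of 6 genes tested passed by edgeR or DESeq2, and 1 had an unadjusted p-value under 0.05, beside 18.9% of all genes. ACTG1, the cytoplasmic actin with the highest level there, had 0.06 (SE 0.12, adjusted p = 0.809), TPM4 had -0.40 (adjusted p = 0.188) and ACTN1 had 0.36 (adjusted p = 0.509), all edgeR. The list had a median of 0.09.

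Of 13 transcription factors and cofactors of sarcomere genes tested, 3 rose and 1 fell in ULU vs control. The cofactor of serum response factor MRTFA (log2FC 0.61, adjusted p = 0.0239, edgeR) and the myogenic factor MYOD1 (0.86, adjusted p = 0.0258, edgeR) were called with all libraries and not without ULU piglet 43 (adjusted p = 0.0738 and 0.0652). TEAD4, which binds promoters of muscle genes, rose from 25.6 ± 4.33 CPM (n = 6, SD) in control to 44.3 ± 5.33 CPM (n = 5, SD) in ULU (0.79, SE 0.13, adjusted p = 0.00502, edgeR). MYF6, the myogenic factor of mature fibres, fell from 73.5 ± 16.7 CPM (n = 6, SD) to 34.2 ± 11.06 CPM (n = 5, SD), a log2FC of -1.10 (SE 0.21, adjusted p = 0.0122, edgeR). MEF2C, the most abundant of the list, did not pass at 0.13 (adjusted p = 0.754, edgeR). The list had a median of 0.24.

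Of 19 markers tested of cell types other than fibre and heart, edgeR and DESeq2 called 0 in each comparison. An unadjusted p-value under 0.05 was found for 3 of them in ULU vs control, for 1 in UL vs control and for 0 in ULU vs UL, beside 18.9%, 10.8% and 10.8% of all genes. The summed levels had medians of 110 CPM in control and 130 CPM in ULU for smooth muscle, of 97.2 and 94.8 CPM for endothelium, of 5646 and 4254 CPM for fibroblasts and of 44.7 and 22.4 CPM for adipocytes. For leukocytes they were 40.6 and 12.2 CPM, for red cells 43.9 and 60.4 CPM and for satellite cells 13.8 and 14.9 CPM. Medians were thus lower in ULU than in control for leukocytes, adipocytes, fibroblasts and endothelium. They were higher for smooth muscle, red cells and satellite cells, as for the fibre markers. The ranges of control and ULU overlapped for each of these types. They did not for the heart markers, whose sums ran from 697 to 1195 CPM in control and from 1407 to 2752 CPM in ULU. Those sums include the row of MYH6, whose reads cannot be told from those of MYH7. For leukocytes they ran from 13.4 to 63.7 CPM in control and from 9.11 to 50.9 CPM in ULU. In UL the medians were 27.3 CPM for leukocytes and 20.7 CPM for adipocytes. The part of tissue composition in the differences was not tested.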

How the data were processed

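Total RNA of 17 longissimus muscle samples was sequenced on a NextSeq 500 as single reads of 75 nt. After trimming with fastp and alignment to Sscrofa11.1 with HISAT2, the authors deposited raw counts per gene of Ensembl release 104, made with featureCounts (version 2.0.1 per the file headers, Subread 1.5.1 in the submitters' processing notes) without options for strand, multi-mapped reads or reads on several genes. The strand of a read was thus not used where genes overlap in antisense, and reads shared by several genes were left out. A deposited mean of the counts per gene, a signal averaged over the libraries by the authors, served only as a check of the counts. Counts ranged from 16137365 to 26546810 per library, and a limit of 3 reads covers counting error only.

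The counts were analysed with edgeR 4.0.16 (TMM, filterByExpr, glmQLFit and glmQLFTest, 1 model of 17 libraries, Benjamini-Hochberg adjustment over 14203 genes) in R 4.3.3, and with pandas 2.3.3 and scipy 1.17.1 in Python 3.11.15. A gene was called at an adjusted p-value under 0.05 with no limit on the fold change. DESeq2 1.42.0 was an alternative. Standard errors were the absolute log2(fold change) divided by the square root of F. Within-library ratios and library measures were compared by exact permutation (two-sided), and relations between genes by 100000 permutations. The scripts were tested on simulated counts. Symbols came from the Ensembl IDs for 15029 genes. A further 6230 were named by position in RefSeq, when at least 50% of the exonic bases lay in the span of 1 gene and all rows of that name were on 1 strand.

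The members and lists were chosen with earlier results of these data known. All members are given, and from each list the gene with the highest mean CPM and the 2 with the smallest p-value in ULU vs control; the further called list genes were named after their values were seen. Genes most like a member are the 5 with the highest r. Alternatives changed the tool, the libraries fitted, the scaling, the filter and each library in turn. P-values measure the spread between piglets, with 1 library each. Sequences were not used here.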

Additional observations from a re-analysis of the deposited data

Results flagged for a closer look

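Among 57 groups of values of the rows and ratios, 8 held a piglet whose gap to its nearest neighbour was large for the range of its diet (Dixon's 95% limit), where chance gives about 1 in 20. ULU piglet 43 was high for NEB at 17086 CPM and for MYOM2 at 2360 CPM. Control piglet 23 was high for the larger 5′ row of titin at 2151 CPM and for the smaller one at 389 CPM. UL piglet 30 was low for MYOM1 at 393 CPM. The ratio of ACTA1 to ACTC1 was high in UL piglet 31 at 333, the ratio of TPM1 to TPM2 was high in control piglet 24 at 3.56, and the ratio of the 3′ row to the larger 5′ row of titin was low in UL piglet 32 at 0.994.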

How the results depend on the processing

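The number of genes called depended on the tool and the libraries. DESeq2 called 146 genes in UL vs control, 1037 in ULU vs control and 173 in ULU vs UL. With only the 2 diets in the model, 111 genes were called in ULU vs control and 1 in ULU vs UL, and without the filter on low counts 228 and 8. ULU vs UL gave 9 genes without scaling factors and 8 with the robust fit. Leaving out each library gave 0 to 16 genes in UL vs control, 147 to 799 in ULU vs control and 1 to 7 in ULU vs UL. Without scaling factors, the median of all genes in ULU vs control was lower by 0.19 (log2) and 15.8% of the calls were higher in ULU, against 66.7% with TMM.

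Of the 10 genes, 7 were called in ULU vs control by DESeq2, 4 with RLE factors and 4 without mitochondrial genes. There were 5 when the members were left out of totals and factors, 2 without scaling factors (ACTA1 and TPM2), and 0 with only the 2 diets or without the filter. Over all genes, DESeq2 called 1037 of 12737. RLE factors gave 296 higher and 130 lower of 14203, and the fit without mitochondrial genes 292 and 130 of 14172. With the members left out there were 310 and 139 of 14203, and without scaling factors 65 and 347. Leaving out 1 library gave 0 to 7 of the 10, beside 147 to 799 of all genes. The count was 0 without control 22, 23, 24 or 26 or ULU 40, 41 or 43, 7 without control 25 and 6 without ULU 42. Without mitochondrial genes the summed share was 13.3% in control, 14.6% in UL and 16.4% in ULU. Their share of all counts ranged over 11.02 to 11.6%, 12.7 to 13.1% and 14.2 to 15.2% in that order when piglets of the diet were left out in turn.

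Directions turned for values near 0. In ULU vs control, NEB had a log2FC of -0.0789 and the larger 5′ row of titin one of -0.139 without scaling factors. In ULU vs UL, NEB had -0.00595 with upper-quartile factors and -0.108 without factors, and MYBPC1 had -0.0521 without factors. When piglets were left out in turn, log2FC ranged from -0.0389 to 0.206 for NEB and from -0.0600 to 0.149 for the larger 5′ titin row in ULU vs control, and from -0.312 to 0.515 for ACTC1, -0.14 to 0.101 for NEB and -0.0331 to 0.200 for MYBPC1 in ULU vs UL. The log2 titin ratio of UL vs control ranged from -0.0452 to 0.118. The cause of these changes was not tested. The level per RefSeq transcript length was not run, because the tables used here give gene spans and no transcript lengths. No paired analysis was possible, because the piglets were pair-fed but the labels do not name the pairs.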
